A study of Mus musculus with 8 samples.

Results

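Acetylcholinesterase (*Ache*), its direct neighbor on chromosome 5 *Ufsp1*, and *Colq* were followed as 3 of the 19465 genes of a probe-based spatial transcriptome of embryonic mouse diaphragm. The genes were named with results of these sections in view, and were chosen by their high UMI counts in the central part of control muscle. Their central position in controls is therefore given as a description without a test. All 3 genes carried a probe and UMIs in all 8 sections, and all 3 passed the filter on low counts in both fits.

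Acetylcholinesterase splits acetylcholine in the synaptic cleft and so ends each signal from motor nerve to muscle. At the neuromuscular junction (NMJ) the enzyme is held in the synaptic basal lamina by a collagen tail, ColQ, the product of *Colq*, which binds perlecan and the receptor tyrosine kinase MuSK. *Ufsp1* encodes a cysteine protease for the ubiquitin-like modifier UFM1 and lies directly downstream of *Ache* on the same strand.

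The sections were 5 µm thick, cut en face through formaldehyde-fixed, paraffin-embedded diaphragms, and were read in spots of 55 µm at a pitch of 100 µm. There were 3 control sections from embryos of stage E14.5 (days of development) and 2 of stage E18.5, 1 section of a CaV1.1 KO at each of both stages, and 1 section of a β-cat cKO at E18.5. The CaV1.1 KO lacks the skeletal muscle calcium channel CaV1.1, encoded by *Cacna1s*, through the dysgenic (mdg) allele. In the β-cat cKO the floxed β-catenin gene *Ctnnb1* is recombined by Cre under the human skeletal actin (HSA) promoter, so the loss is limited to cells in which that promoter has been active. The CaV1.1 KO came from heterozygous CaV1.1 crosses or from crosses that also carried the floxed β-catenin line, the β-cat cKO came from the combined crosses, and controls had at least 1 CaV1.1 and 1 β-catenin expressing allele. Which cross a section came from, and which control section carried a mutant allele, or Cre, is not given in the sources used here. A mutant group is 1 section, and nothing states whether control sections of a stage came from separate litters, so the spread between sections may be partly technical.

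The sequences around both starts on chromosome 5 are shown because *Ache* and *Ufsp1* behaved as a pair in most of what follows. In GRCm38.p6 RefSeq places *Ache* (ENSMUSG00000023328) at chr5:137288247-137294466 and *Ufsp1* (ENSMUSG00000051502) at chr5:137294669-137295664, leaving 202 bases between them. GENCODE vM21 starts *Ufsp1* earlier, which leaves 162 bases, and puts both genes on the plus strand. The 197 bases before the RefSeq start of *Ache* (chr5:137288050-137288246, plus strand) and the 162 bases between the genes in GENCODE (chr5:137294467-137294628, plus strand) read as follows, from the RefSeq promoter table of GRCm38.p6, with an E-box in capitals.
Ache, before the start: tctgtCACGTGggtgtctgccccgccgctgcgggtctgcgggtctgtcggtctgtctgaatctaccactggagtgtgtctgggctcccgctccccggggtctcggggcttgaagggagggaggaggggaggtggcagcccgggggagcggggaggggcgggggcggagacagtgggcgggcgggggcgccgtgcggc
Ufsp1, between the genes: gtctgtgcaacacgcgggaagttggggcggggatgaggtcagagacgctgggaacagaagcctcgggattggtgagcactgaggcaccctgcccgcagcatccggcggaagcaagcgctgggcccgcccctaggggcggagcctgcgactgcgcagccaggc
The E-box, defined by the letters CANNTG, stood 199 bases before the start of the table's *Ache* entry as CACGTG, a palindrome that reads alike on both strands. Which factors bind this site was not tested. It was the only E-box in the 300 bases around the *Ache* start, and the 300 bases around the *Ufsp1* start held none. Of 32851 promoters of that length in the table, 72.3% held an E-box on either strand. The N-box CCGGAA, known from subsynaptic promoters, was in neither window and in 14.9% of all promoters. Only these 300 bases per gene were read, so sites farther away, introns included, are not covered. The *Ache* stretch lies in GENCODE inside the longer *Ache* gene, which starts at 137287519, and is intronic in its longer transcripts apart from the first bases. *Colq* (ENSMUSG00000057606) lies at chr14:31523082-31577863 in RefSeq and on the minus strand. Probe positions were not used here, so UMIs of a transcript that runs through both *Ache* and *Ufsp1* cannot be told apart from UMIs of separate transcripts.

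The sections held 14179161 to 82859104 UMIs, with medians of 15434 to 45284 UMIs per spot. Muscle spots, 491 to 3092 per section, were those above an automatic threshold on 9 muscle genes such as *Ttn* and *Neb*, which were detected in the muscle of all 8 sections. Muscle spots were ranked by a score of *Chrna1*, *Chrnd*, *Chrng*, *Musk*, *Etv5* and *Prkar1a*, genes known at the NMJ, and the upper 15% were taken as the muscle center, 74 to 464 spots. The score left out all 3 genes followed here. In the E14.5 KO the center spots held a median of 51857 UMIs against 17075 in the other muscle, a gap of depth that no other section had. Sections shared 150 to 2153 spot barcodes, since the arrays carry the same barcode set.

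The targeted genes were checked first. *Cacna1s* read 13.4 normalized CPM (UMIs per 1000000 UMIs, after TMM scaling) in the muscle of the E14.5 KO and 14.96 to 18.4 in its controls, which was not called in edgeR's quasi-likelihood test. At E18.5 it read 29.7 in the KO and 84.4 and 87.3 in the controls and was called lower. *Ctnnb1* read 96.2 in the β-cat cKO and 105 and 97.4 in its controls and was not called. Where the probes lie relative to the altered part of each gene was not looked up. The labels of the E14.5 KO and of the β-cat cKO are thus not checked by these values, and both are named below as labelled.

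**Figure D1:**
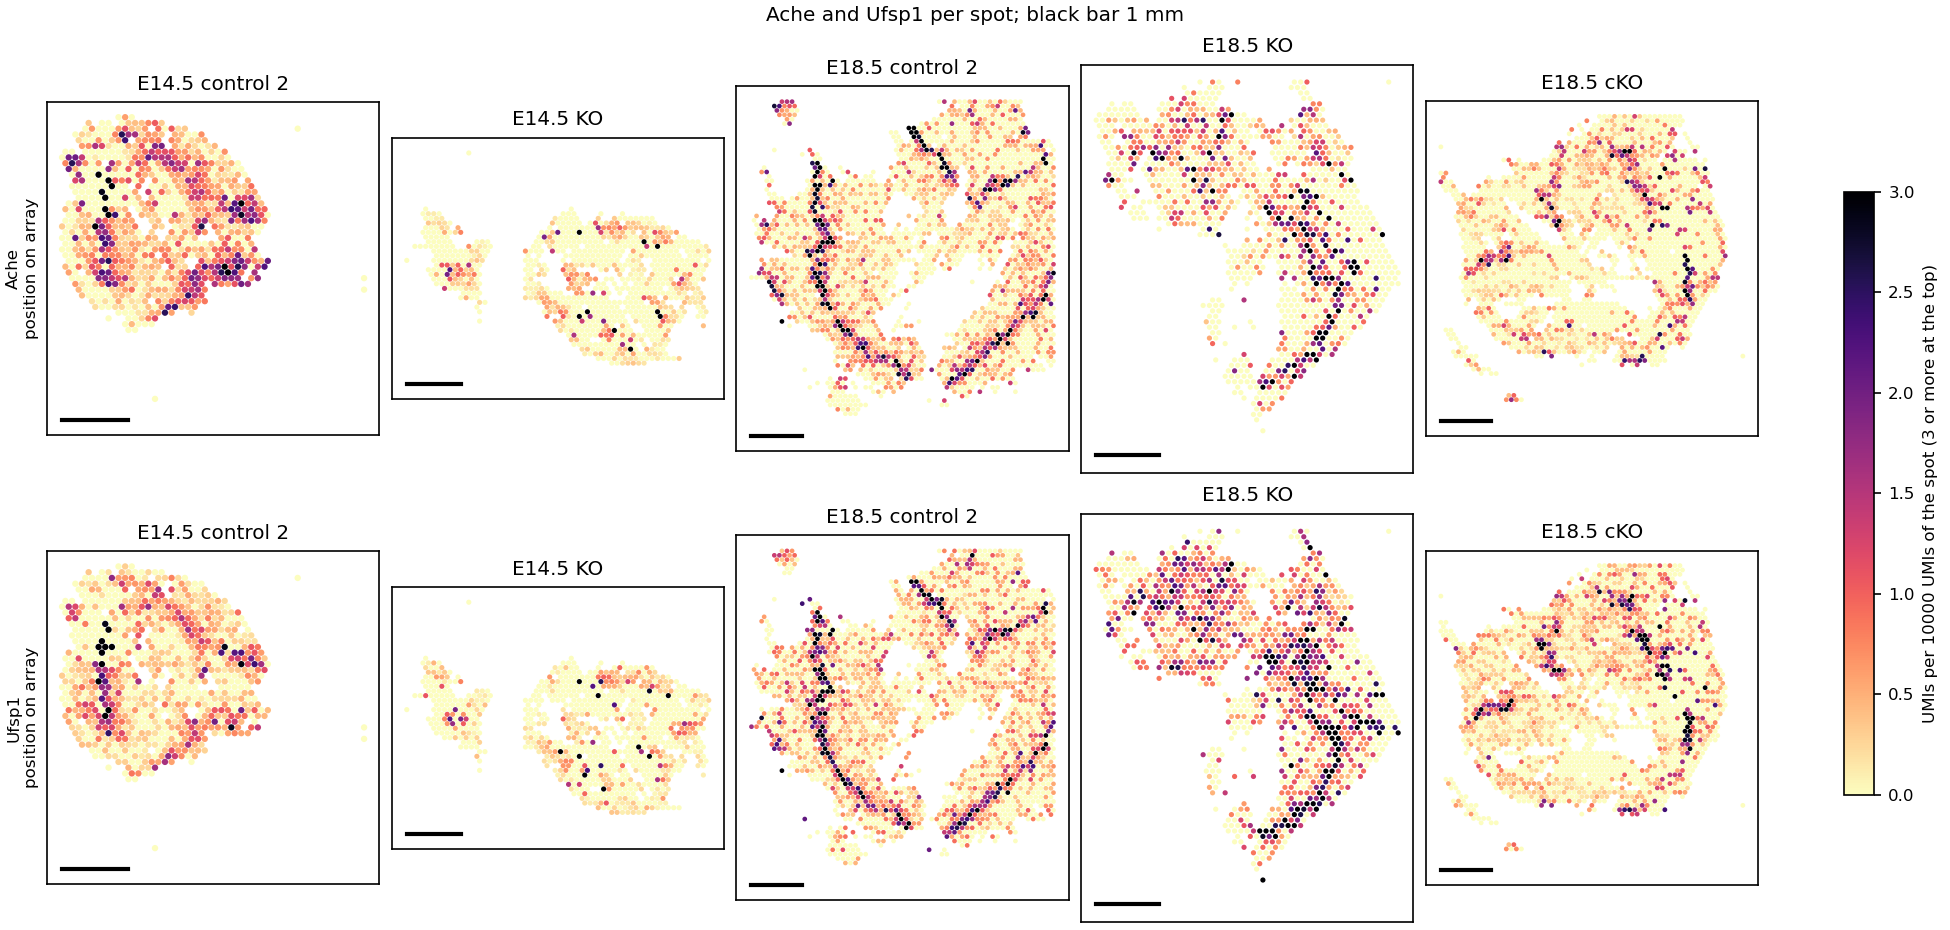
*Ache* (top) and *Ufsp1* (bottom) by spot in 5 of the sections, placed by their position on the array, in UMIs per 10000 UMIs of the spot (linear color scale, values at the top end pooled). In E18.5 control 2 the dark spots form narrow lines, in E14.5 control 2 wider bands, and in the E18.5 KO *Ufsp1* extends around the line.

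In control muscle at E14.5, *Ache* formed a wide band around the center. Its level in center spots was 200, 178 and 159 CPM in controls 1, 2 and 3, against 69.1, 63.3 and 94.2 CPM in the other muscle spots. At E18.5 the center of controls 1 and 2 held 162 and 175 CPM, and the other muscle only 22.0 and 28.8 CPM. On this scale the center of the E18.5 controls lay within the range of the E14.5 controls, while the other muscle of both stages did not overlap. On the normalized scale of the tests (CPM after TMM scaling of the center and other-muscle sums), the *Ache* center was higher at E18.5. It read 208 and 231 against 130 to 176, and the other muscle was lower, at 30.8 and 39.7 against 51.7 to 75.8. The other muscle was thus lower at E18.5 on both scales, while the change of the center depends on the scale. TMM scales the sums of center and other muscle separately, so the ratio within a section also shifts with the scale. On plain CPM, as for the section ratios below, the ratio of center to other muscle was 2.89 (95% interval 2.63 to 3.17), 2.82 and 1.69 (1.49 to 1.92) at E14.5. At E18.5 it was 7.37 (6.88 to 7.90) and 6.08 (5.68 to 6.52). All intervals on single sections cover counting error only.

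*Ufsp1* was also higher in the center, and its center at E18.5 lay above that of all E14.5 controls. It held 155, 134 and 143 CPM at E14.5 and 196 and 175 CPM at E18.5, and its other muscle 50.7, 42.6 and 71.3 CPM against 27.8 and 30.7 CPM. On the normalized scale the other muscle of both stages overlapped, at 34.8 to 57.4 and at 38.9 and 42.3. The ratios of center to other muscle were 3.06, 3.15 and 2.01 at E14.5 and 7.05 and 5.71 at E18.5. Control 3 was the lowest of the E14.5 sections in this ratio for both genes.

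*Colq*, the collagen tail, was sparser and less sharply placed. Center spots held 19.2, 18.2 and 19.6 CPM at E14.5 and 14.6 and 16.02 CPM at E18.5, from 42 to 175 UMIs per section. The other muscle held 10.6, 8.85 and 11.6 CPM, and 4.99 and 6.14 CPM. Its ratios were 1.82, 2.06 and 1.69 at E14.5 and 2.92 and 2.61 at E18.5. The center was above the other muscle for all 3 genes in all 8 sections. By this contrast, fitted over 14306 genes, *Ufsp1* ranked 57 and *Ache* 76 in the E14.5 controls and 29 and 25 in the E18.5 controls, and *Colq* ranked 210 and 164, which describes the choice and is no test of it. With spots thinned to 5000 UMIs all 24 ratios stayed above 1, the lowest being 1.42 for *Colq* in the E14.5 KO, on 1 center UMI. The intervals spanned 1 for *Colq* in every E14.5 section and for *Ufsp1* in the E14.5 KO.

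**Figure D2:**
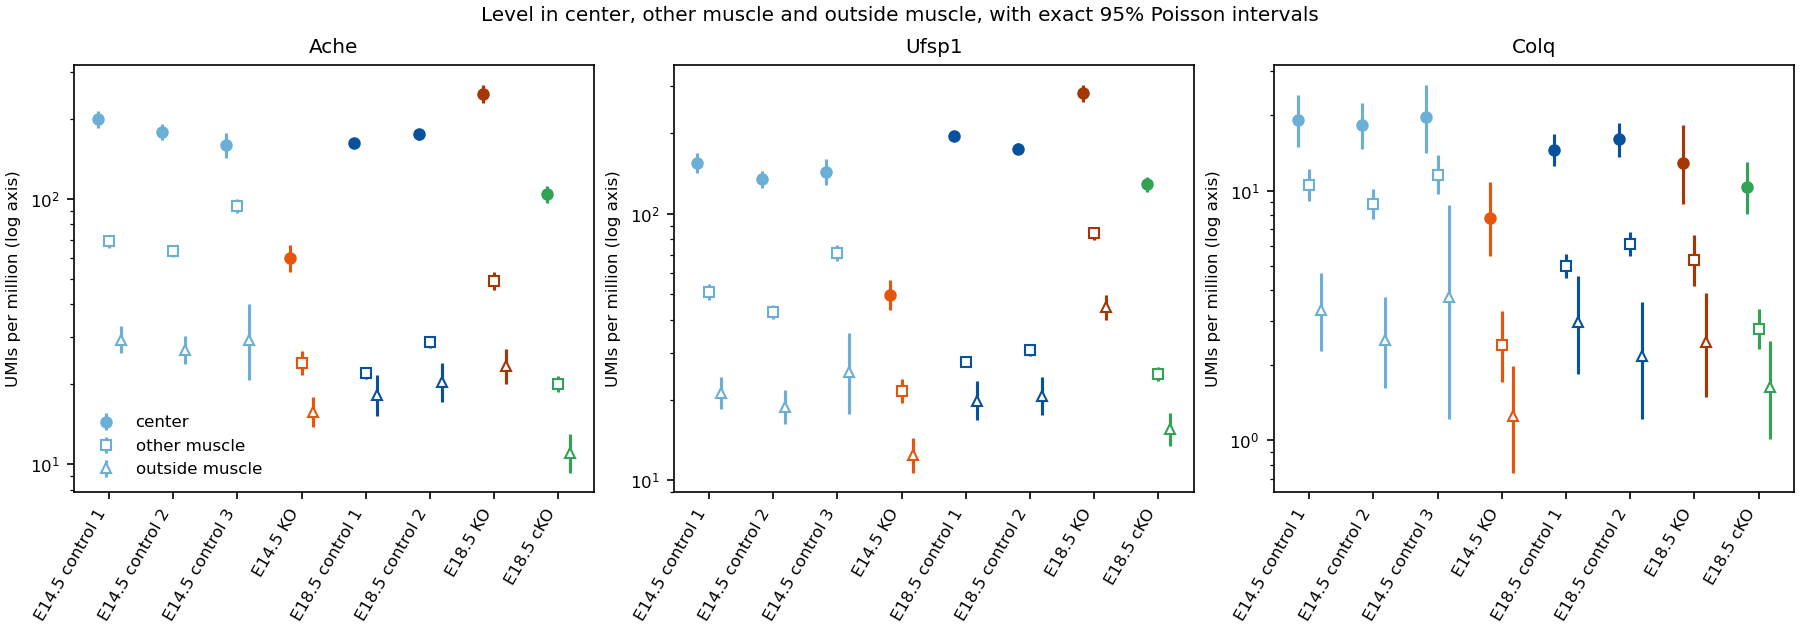
CPM of *Ache*, *Ufsp1* and *Colq* in center, other muscle and outside muscle, per section, with exact 95% Poisson intervals on a log axis. Center points sit above other muscle in all 8 sections, and the E14.5 KO has the lowest center point for all 3 genes.

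The change in this contrast between stages was tested as an interaction of region with group, fitted over 14306 genes with each section as a block. It is another contrast than the one that chose the genes, but it rests on the same control sections. The log2 ratio of center to other muscle of *Ache* was 1.36 in E14.5 controls and 2.65 in E18.5 controls, a difference of 1.29 (SE 0.09, adjusted p = 2.44e-17, edgeR quasi-likelihood test with Benjamini-Hochberg adjustment). For *Ufsp1* it was 1.503 and 2.57, a difference of 1.07 (SE 0.09, adjusted p = 7.8e-15). *Colq* differed by 0.42 (SE 0.16, adjusted p = 0.08), from 0.95 to 1.37, and was not called. So 2 of the 3 genes were called sharper at E18.5, where 12.1% of all genes tested were called in either direction. These SEs and p-values rest on a spread estimated with the help of all genes, with 3 residual degrees of freedom. They do not measure the spread of *Ache* or *Ufsp1* alone between sections. The center was 15% of muscle spots at both stages, so it need not be a like part of the fibers. E14.5 controls had 549, 571 and 581 muscle spots, and E18.5 controls 3092 and 2199. With spots thinned to 5000 UMIs, 54 of 75, 50 of 79 and 41 of 85 center spots at E14.5 were shared with the main center. At E18.5 these were 330 of 459 and 226 of 329. The part of center placement in the stage difference was not tested. By section, the log2 ratio of *Ache* on plain CPM was 1.53, 1.49 and 0.76 at E14.5 and 2.88 and 2.60 at E18.5.

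The receptor subunits give a scale for this. *Chrna1*, *Chrnd* and *Chrng* also rose in central contrast with stage, *Chrna1* from 1.04 to 2.38, but these 3 belong to the score that set the center. *Chrne*, the adult ε subunit, stood outside the score and rose from 1.64 (SE 0.44) to 3.59. Its E14.5 value is uncertain, since its level in control muscle was only 0.695 to 0.817 normalized CPM. In E14.5 control 3 its center, at 0.77, was below the other muscle, at 0.83. *Chrnb1* fell, from 0.40 to 0.18. The calls of *Ache* and *Ufsp1* as sharper held in 10 of 11 alternatives, and were lost where the section block was left out (adjusted p = 0.088 and 0.15).

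**Figure D3:**
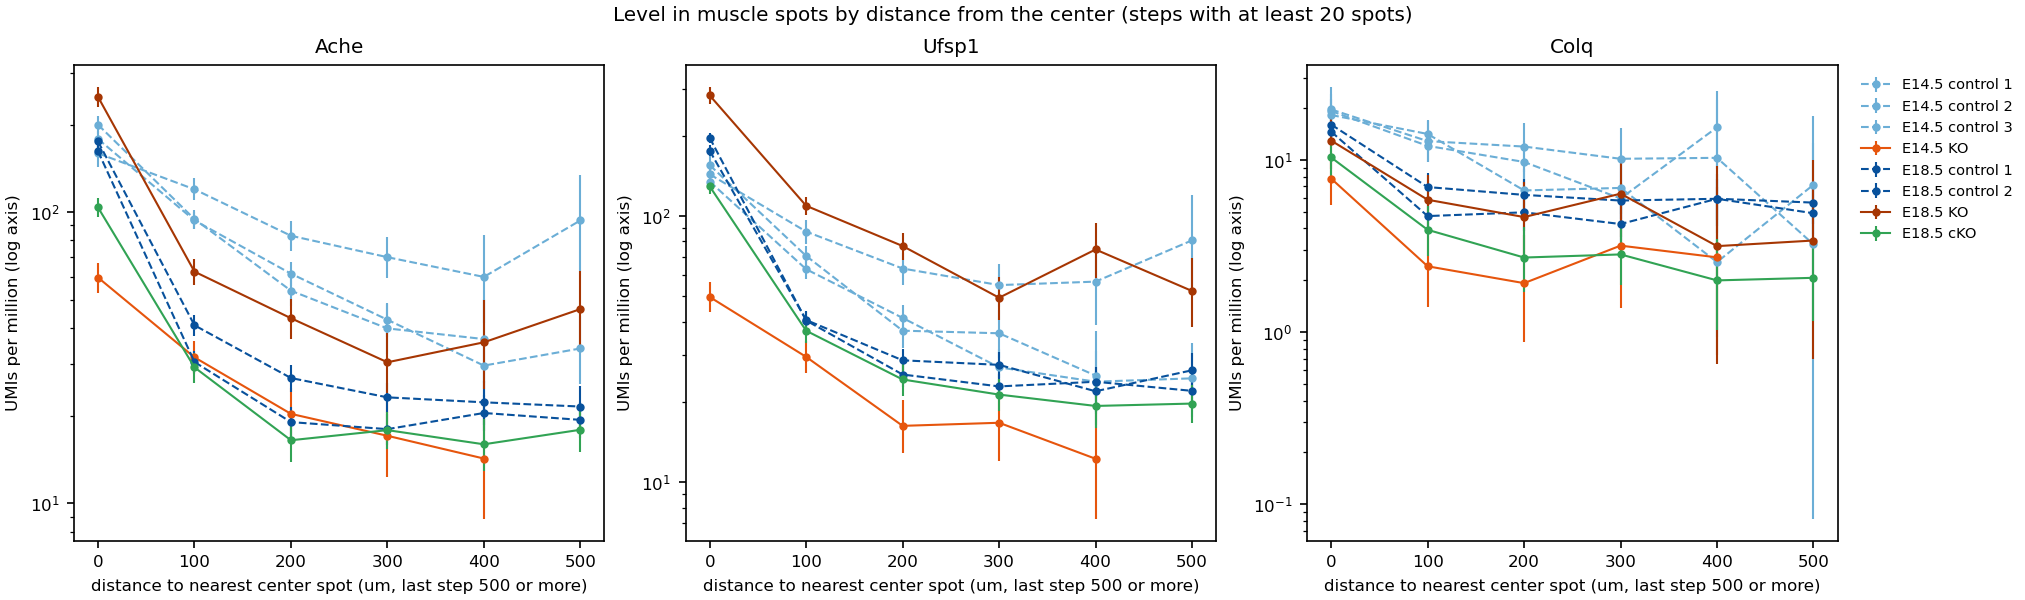
CPM (log axis) of the 3 genes against distance to the nearest center spot in steps of 100 µm, 1 line per section with exact 95% Poisson intervals. *Ache* falls within the first 100 µm in E18.5 controls and more gradually in E14.5 controls.

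The profile across the muscle showed where the stages parted. One spot away from the center, at 100 µm, *Ache* still held 94.7, 93.7 and 120 CPM in the E14.5 controls but 30.6 and 40.9 CPM in the E18.5 controls. At 200 µm it held 53.7, 61.5 and 83.0 CPM at E14.5 and 19.0 and 26.9 CPM at E18.5. At both distances the stages did not overlap on plain CPM. The distances are fixed lengths and were not scaled to the size of the muscle. Of all *Ache* UMIs in muscle, the center held 38.7%, 35.6% and 25.3% at E14.5 and 58.1% and 54.3% at E18.5. For *Ufsp1* these shares were 40.0%, 38.2% and 28.7%, then 57.0% and 52.8%.

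In muscle spots scored as periphery the order turned between stages. Spots at the periphery, scored by the myotendinous genes *Col22a1*, *Ankrd1*, *Rxrg* and *Uchl1*, held less *Ache* than the muscle between center and periphery at E14.5, with 50.02, 45.1 and 60.7 CPM against 72.3, 67.0 and 101 CPM. At E18.5 they held more, with 33.8 and 38.4 CPM against 19.4 and 26.9 CPM. The counting intervals of both regions were apart in all 5 controls. The section labelled β-cat cKO had the E18.5 order, with 33.5 against 17.1 CPM, while the E18.5 KO had that of E14.5, with 28.5 against 52.5 CPM. *Ufsp1* turned in the same direction in controls, but at E18.5 it held 31.5 and 33.3 CPM at the periphery against 27.0 and 30.2 CPM, with overlapping intervals. These positions were compared within sections and no difference between groups was tested.

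Summed over all muscle, stage alone changed the 3 genes little on the normalized scale. *Ache* read 80.7, 67.3 and 84.7 normalized CPM in the E14.5 controls and 60.8 and 72.03 in the E18.5 controls, with overlap, and a log2 fold change of -0.22 (SE 0.12, adjusted p = 0.14, edgeR). *Ufsp1* read 60.5, 47.2 and 67.1, then 75.0 and 74.3, with no overlap, a log2 fold change of 0.36 (SE 0.14, adjusted p = 0.0486). *Colq* read 10.6, 8.51 and 10.4, then 8.96 and 10.6, and its change was near 0 (adjusted p = 0.99). Only *Ufsp1* was called, in a comparison in which 65.6% of the 14832 genes tested were called.

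*Ufsp1* was past the threshold in 7 of 12 alternatives, 1 of them in the other direction (scaled to the muscle genes). With muscle cut at the median muscle score the change was 0.03 (adjusted p = 0.84). The call was also lost without E14.5 control 1 (adjusted p = 0.066), control 2 (0.071), E18.5 control 1 (0.12) or E18.5 control 2 (0.11). The scale matters as well, since muscle genes took a larger part of all UMIs at E18.5, with a summed level of the 9 muscle genes of 21640 to 27360 CPM at E14.5 and 128400 and 131900 CPM at E18.5. On plain CPM, *Ache* fell from 92.5, 82.2 and 105 to 44.1 and 52.7. *Ufsp1* fell on this scale too, from 69.3, 57.6 and 83.2 to 54.4 and 54.3, the direction opposite to its call. Scaled to the 9 muscle genes, the median of all genes moved by -3.19 and *Ufsp1* by -2.81, which is 0.38 above that median.

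The E14.5 section labelled CaV1.1 KO had the lowest level of all 3 genes. *Ache* read 26.5 normalized CPM in its muscle against 67.3 to 84.7 in the controls, a log2 fold change of -1.55 (SE 0.17, adjusted p = 0.0094, edgeR). *Ufsp1* read 23.0 against 47.2 to 67.1, a change of -1.33 (SE 0.20, adjusted p = 0.0217). *Colq* read 2.99 against 8.51 to 10.6, a change of -1.71 (SE 0.23, adjusted p = 0.0171). The KO section stood below all 3 controls for each gene, and 3 of 3 genes were called lower where 2.08% of all genes tested were called. In bulk sums of spots, fewer fibers in a spot and less RNA per fiber cannot be told apart.

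The drop was present both in and around the center. *Ache* held 59.6 CPM (95% interval 52.8 to 67.1) in center spots of the KO and 24.1 CPM in its other muscle, both under all controls. The central contrast did not differ by the test, at 0.02 (SE 0.17, adjusted p = 1.0) for *Ache*, -0.24 (SE 0.17, adjusted p = 0.80) for *Ufsp1* and 0.81 (SE 0.36, adjusted p = 0.54) for *Colq*. None of the 3 was among the 0.203% of genes called in that contrast. At an unadjusted p under 0.05 there was 1 of the 3, and DESeq2 called 0. At matched depth the *Colq* value turned to -0.18, from 1 center UMI in the KO.

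Other genes of the junction were read in the same muscle. *Chrna1* read 214 normalized CPM in the E14.5 KO and 172 to 227 in the controls, and *Chrng* 320 against 306 to 423, and neither was called. *Chrnb1* read 79.7 against 94.8 to 120 and *Chrnd* 101 against 103 to 143, below all 3 controls, and these were not called either. The median log2 fold change of the 5 receptor subunits was -0.29. *Chrne* was called lower in edgeR and not in DESeq2, 1 of the 5 receptor subunits, at 0.12 normalized CPM against 0.70 to 0.82, levels near the limit of counting. Of 9 genes for anchors and the synaptic matrix, among them *Bche*, *Hspg2*, *Dag1* and *Musk*, 0 were called in edgeR in this section, 3 were at an unadjusted p under 0.05 and 2 were called by DESeq2, with a median log2 fold change of 0.12 beside a median of 0.00 over all genes. The summed 9 muscle genes were 16240 CPM in the KO and 21640 to 27360 CPM in its controls, and *Ttn* was 2243 against 2585 to 3347 CPM. Of the lists for other cells, Schwann cell genes summed to 44.6 CPM (controls 35.4 to 38.2), fibroblast genes to 323 (197 to 285) and mesothelium genes to 91.0 (58.4 to 81.5), above all 3 controls. Cartilage genes, at 35.8 CPM, were above them too (16.9 to 33.0). Endothelium genes summed to 155 CPM (219 to 313), tendon genes to 420 (480 to 602), myotendinous genes to 253 (262 to 287) and fast fiber genes to 902 (1118 to 1564), below all 3. The adrenal cortex list (4.14 against 4.91 to 32.4 CPM) and the endplate list (1858 against 1875 to 2228 CPM) were also below, while the erythrocyte, hepatocyte, smooth muscle and slow fiber lists lay within the control range. Apart from 1 cartilage gene, no gene of these lists was at 0 in the KO, and their part in the result was not tested. Scaled to the 9 muscle genes, *Ache* was lower by -0.99 (adjusted p = 0.0034) where the median of all genes moved by 0.56.

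The E14.5 calls rest in part on control 3. Without it the adjusted p was 0.044 for *Ache*, 0.063 for *Ufsp1* and 0.072 for *Colq*.

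At E18.5 the CaV1.1 KO no longer had low *Ache*. It read 75.0 normalized CPM against 60.8 and 72.03 in the controls, a log2 fold change of 0.18 (SE 0.16, adjusted p = 0.46, edgeR). *Ufsp1* read 108 against 75.0 and 74.3, a change of 0.53 (SE 0.18, adjusted p = 0.068). *Colq* read 6.09 against 8.96 and 10.6, a change of -0.68 (SE 0.22, adjusted p = 0.059). The KO section lay above both controls for *Ache* and *Ufsp1* and under both for *Colq*, but 0 of the 3 were called in edgeR or in DESeq2, where 25.7% of all genes tested were called in edgeR. At an unadjusted p under 0.05 there were 2, *Ufsp1* and *Colq*. *Ufsp1* was past the threshold in 3 of 9 alternatives, and *Ache* and *Colq* in 1 of 9 each. On plain CPM the gap was wider, with *Ache* at 79.4 against 44.1 and 52.7 and *Ufsp1* at 114 against 54.4 and 54.3.

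Within the muscle of the E18.5 KO, *Ufsp1* was less confined to the center. Its center held 283 CPM, above the 196 and 175 CPM of the controls, and its other muscle 84.2 CPM (against 27.8 and 30.7 CPM), so that the ratio of center to other muscle was 3.36 (95% interval 3.05 to 3.69). On the normalized scale the center was 278 against 251 and 231, and the other muscle 79.8 against 38.9 and 42.3. The central contrast was -0.78 (SE 0.12, adjusted p = 2.23e-05, edgeR) against controls, from 2.57 to 1.80, and *Ufsp1* was the 1 member called where 2.24% of genes tested were. The E18.5 controls of this contrast are among the sections in which the genes were chosen by center UMIs. The call is thus not independent of that choice. At 100 µm from the center *Ufsp1* held 109 CPM in the KO and 40.4 and 40.5 CPM in the controls, and at 200 µm 76.9 against 25.3 and 28.6 CPM.

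*Ache* was also higher around the center in the E18.5 KO, at 49.1 CPM against 22.0 and 28.8 CPM, and its center held 249 CPM against 162 and 175 CPM. On the normalized scale these were 46.5 against 30.8 and 39.7 for the other muscle, and 244 against 208 and 231 for the center, a smaller gap. Its central contrast of 2.39 against 2.65 was not called (difference -0.25, SE 0.14, adjusted p = 0.50), and that of *Colq* was not either (-0.03, SE 0.33, adjusted p = 1.0). *Chrna1*, *Chrnd*, *Chrng* and *Chrne*, 4 of 5 receptor subunits, also fell in central contrast, by 0.60, 0.76, 0.43 and 1.11 on the log2 scale, in edgeR. DESeq2 called 0 of the 5, and all but *Chrne* of these 4 belong to the score that set the center. Over all muscle the same 4 subunits rose, with *Chrne* at 14.03 against 5.34 and 5.65 normalized CPM. The *Ufsp1* call in central contrast was lost in DESeq2 (adjusted p = 0.48), at matched depth (-0.63, adjusted p = 0.084) and without the section block.

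In the same muscle spots the 9 muscle genes summed to 71380 CPM against 128400 and 131900 CPM, and the Schwann list, with all 5 genes detected, to 139 CPM against 22.2 and 25.9 CPM. Endplate genes summed to 1826 CPM against 948 and 950, and mesothelium genes to 197 against 40.0 and 123. The hepatocyte and adrenal cortex lists were above both controls too. Fast fiber genes summed to 9062 CPM against 12230 and 13820. The slow fiber, myotendinous, fibroblast, smooth muscle, endothelium, erythrocyte and cartilage lists were also below both, and the tendon list lay between. The part of the lists in these values was not tested. Scaled to the muscle genes, *Ache* rose by 1.58 and *Ufsp1* by 1.94, both called, where the median of all genes moved by 1.40, and *Colq* turned to 0.72.

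The change from E14.5 to E18.5 in the KO effect was tested as a difference of both effects, which share no section. It was 1.73 (SE 0.23, adjusted p = 0.0206, edgeR) for *Ache* and 1.87 (SE 0.26, adjusted p = 0.0218) for *Ufsp1*. For *Colq* it was 1.03 (SE 0.31, adjusted p = 0.087) and not called. Thus 2 of 3 members were called, where 6.4% of all genes were. Without E14.5 control 3 the adjusted p was 0.072 for *Ache* and 0.071 for *Ufsp1*, and no gene at all was called in edgeR, with 3233 genes at an unadjusted p under 0.05.

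In the E18.5 section labelled β-cat cKO, *Ache* and *Colq* were lower. *Ache* read 37.7 normalized CPM against 60.8 and 72.03 in the controls, a log2 fold change of -0.82 (SE 0.17, adjusted p = 0.0281, edgeR). *Colq* read 4.57 against 8.96 and 10.6, a change of -1.10 (SE 0.22, adjusted p = 0.0251). *Ufsp1* read 47.0 against 75.0 and 74.3, a change of -0.67 (SE 0.19, adjusted p = 0.072). The section stood below both controls for all 3 genes, and 2 of 3 were called, where 8.8% of genes tested were. DESeq2 also called *Ufsp1* (adjusted p = 0.021). The E18.5 controls are the same for KO and cKO. In order of the normalized *Ache* level over all muscle, the E14.5 controls, the E18.5 KO and the E18.5 controls overlapped in range from 60.8 to 84.7, the cKO followed at 37.7 and the E14.5 KO was last at 26.5, each of these 2 being a single section.

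The central contrast in the β-cat cKO was 2.28 for *Ache*, 2.27 for *Ufsp1* and 1.78 for *Colq*. The differences from controls were -0.37 (SE 0.13, adjusted p = 0.20), -0.30 (SE 0.12, adjusted p = 0.24) and 0.41 (SE 0.25, adjusted p = 0.58), so that 0 of 3 were called in edgeR or in DESeq2, where edgeR called 1.63% of genes. At an unadjusted p under 0.05 there were 2 of the 3 in edgeR. With a smoothed score *Ache* (-0.49) and *Ufsp1* (-0.46) were called, against the same E18.5 controls in which the genes had been chosen. Of the 5 receptor subunits, *Chrna1* (2.38 to 1.96) and *Chrnd* (1.96 to 1.54) were called lower in central contrast in edgeR, but both belong to the center score. Of the 9 anchor and matrix genes *Agrn* (0.06 to -0.43) was called lower, and DESeq2 called 0 genes of both lists. In level over all muscle, where 8.8% of genes tested were called, *Bche* and *Lamb2*, the synaptic laminin chain, fell by 1.18 and 0.78, 2 of those 9 genes. The fetal receptor subunit *Chrng* rose by 1.08, and *Chrne* fell by 1.85.

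The cKO call was past the threshold in 5 of 9 alternatives for *Ache* and in 6 of 9 for *Colq*. Without E18.5 control 2 the adjusted p was 0.065 for *Ache* and 0.061 for *Colq*, and scaled to the muscle genes it was 0.39 and 0.23. With the replicate block it was 0.105 and 0.107, and with muscle cut at the median muscle score it was 0.13 for *Ache*. The slow fiber list summed to 4769 CPM in this muscle against 7070 and 8493 CPM, the fast list to 10210 against 12230 and 13820, and the 9 muscle genes to 105200 against 128400 and 131900. Smooth muscle genes summed to 568 CPM against 308 and 313, myotendinous genes to 441 against 260 and 287, endplate genes to 1140 against 948 and 950, and tendon genes to 546 against 388 and 471. Erythrocyte genes summed to 323 CPM against 705 and 697, endothelium genes to 324 against 485 and 430, and cartilage genes to 35.9 against 960.0 and 62.4. The part of these lists was not tested.

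**Figure D4:**
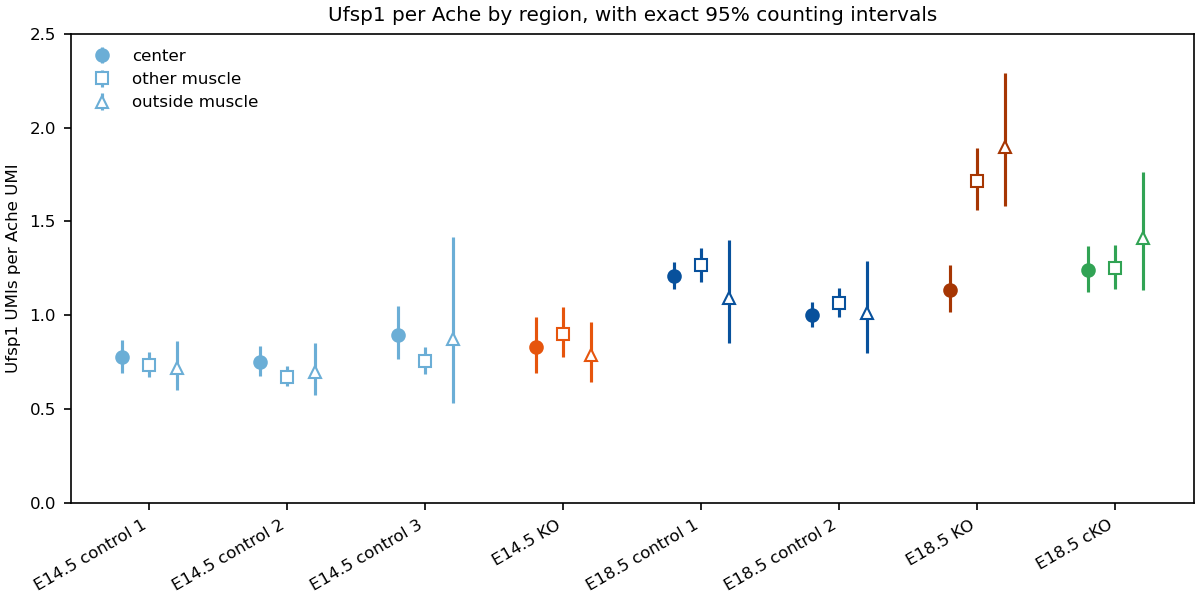
UMIs of *Ufsp1* per UMI of *Ache* in center, other muscle and outside muscle, per section, with 95% intervals. The E14.5 controls lie below 1 in center and other muscle, the E18.5 controls at or above 1, and other muscle of the E18.5 KO is the highest muscle value at 1.72.

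*Ufsp1* and *Ache* did not keep a fixed proportion. In muscle there were 0.75, 0.70 and 0.79 *Ufsp1* UMIs per *Ache* UMI in the E14.5 controls and 1.23 and 1.03 in the E18.5 controls. The means were 0.748 ± 0.0455 (SD, n = 3) and 1.13 ± 0.143 (SD, n = 2) with no overlap, and the exact two-sided permutation test gave p = 0.2, the smallest that 3 against 2 sections allow. The proportion depends on the probes of both genes, so it was compared between sections and not read as a ratio of molecules.

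Among mutants, the muscle proportion was 0.87 in the E14.5 KO, 1.44 in the E18.5 KO and 1.25 in the cKO. In the E18.5 KO it differed by position, at 1.14 (1.018 to 1.27) in the center, 1.72 (1.56 to 1.89) in the other muscle and 1.90 (1.58 to 2.29) outside muscle. In the E18.5 controls center and other muscle were close, at 1.21 and 1.27 in control 1 and 1.002 and 1.07 in control 2. The intervals of center and other muscle were apart in the E18.5 KO.

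Spots split by slow and fast fiber genes differed less than spots split by position, and the order differed between stages. Among non-central muscle spots at E18.5, the spots richest in slow fiber genes held 26.7 and 32.5 CPM *Ache* in the controls and those richest in fast fiber genes 18.9 and 26.6 CPM. The same order held in the E18.5 KO, at 54.5 against 44.0 CPM, and in the cKO, at 26.6 against 14.4 CPM. *Colq* had this order too in 4 of 4 sections, with 5.83 against 4.51 and 7.57 against 5.31 CPM in the controls. *Ufsp1* differed less than *Ache*, with 30.3 against 26.1 and 33.5 against 29.3 CPM in the controls. It held 86.3 against 82.2 CPM in the KO and 25.1 against 24.4 CPM in the cKO. For *Ache* the counting intervals of the slow-rich and fast-rich spots were apart in the controls and in the cKO and overlapped in the KO. For *Colq* and *Ufsp1* they overlapped in all 4. At E14.5, a stage for which this split had not been planned, the order was not the same. The paper reports type I and IIb clusters at E18.5 only, and at E14.5 *Myh7* higher at the muscle periphery and *Myh4* in its center. Slow-rich and fast-rich spots at E14.5 may thus differ by position, which was not tested. *Chrna1* read 237 CPM in fast-rich against 174 in slow-rich spots of control 1, 168 against 168 in control 2 and 222 against 253 in control 3. Fast-rich spots held more *Ache* than slow-rich spots in controls 1 and 2, at 78.1 against 54.0 and 65.1 against 53.2 CPM with intervals apart, while control 3 held 94.1 against 96.6 and the E14.5 KO 22.1 against 21.9 CPM, both with overlapping intervals.

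Outside muscle all 3 genes were low but not at 0. *Ache* held 29.4, 26.9 and 29.2 CPM there in the E14.5 controls and 18.2 and 20.4 CPM in the E18.5 controls, and *Colq* 2.17 to 3.75 CPM. At 200 µm or more from muscle *Ache* still held 14.2 to 29.9 CPM in the 5 controls, while *Colq* held 0 UMIs in E14.5 control 3, which allows up to 3 UMIs, and 5 to 7 UMIs in the other controls.

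These far spots were then ranked for other cell types. In the E14.5 KO, the 10% of them richest in hepatocyte genes held 50.9 CPM *Ache* (95% interval 39.4 to 64.8) and the 10% richest in erythrocyte genes 43.9 CPM (33.5 to 56.5), from 66 and 60 UMIs. Both exceeded the 32.0 CPM of that section's muscle, while *Ttn* in these spots was 243 and 241 CPM against 2243 CPM in muscle. The proportion of *Ufsp1* to *Ache* there was 0.50 in both, against 0.87 in its muscle. *Colq* had 2 and 0 UMIs. Both sets were drawn from the same far spots, and their overlap was not counted. In erythrocyte-rich spots E14.5 controls 1 and 2 held 12 and 11 *Ache* UMIs, with proportions of 0.75 and 0.18, and the other sections 3 or fewer. The 11 UMIs of control 2 stood beside 48 *Ttn* UMIs, and the 60 of the E14.5 KO beside 329. In hepatocyte-rich spots the other sections held 9 *Ache* UMIs or fewer. Control 2 at E14.5 had 7 beside 44 *Ttn* UMIs there, and the E14.5 KO 66 beside 315. These raw counts are not scaled to the UMIs of each set, so they do not show a lower level than in the KO. In E18.5 control 2 the far spots richest in Schwann cell genes held 125 CPM *Ache* (87.3 to 174) from 35 UMIs, with *Ttn* at 981 against 6999 CPM in muscle and with 0 UMIs of *Colq*. In the other 7 sections the same 10% held 9 *Ache* UMIs or fewer, again as raw counts that are not scaled to the UMIs of each set.

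Across muscle spots the genes most like *Ache* in control sections were *Prkar1a*, a regulatory subunit of protein kinase A, with a mean Pearson r of 0.52 over 5 sections, then *Ufsp1* (0.46), *Chrna1* (0.45), the ETS factor *Etv5* (0.41) and the sodium channel subunit *Scn3b* (0.40), among 5996 genes. The list for *Ufsp1* held *Ache* (0.46) and otherwise these same genes, led by *Prkar1a* (0.52). For *Colq* the highest were *Ache* (0.20), *Ufsp1* (0.18), *Prkar1a* (0.18), *Chrna1* (0.16) and *Chrnd* (0.15), low values in sparse counts. Spots of a section share its library and their depth varied with position, so these values describe and were not tested. Between *Ache* and *Ufsp1*, r was 0.29, 0.48 and 0.30 in the E14.5 controls, 0.63 and 0.59 in the E18.5 controls, 0.18 in the E14.5 KO, 0.54 in the E18.5 KO and 0.45 in the cKO.

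**Figure D5:**
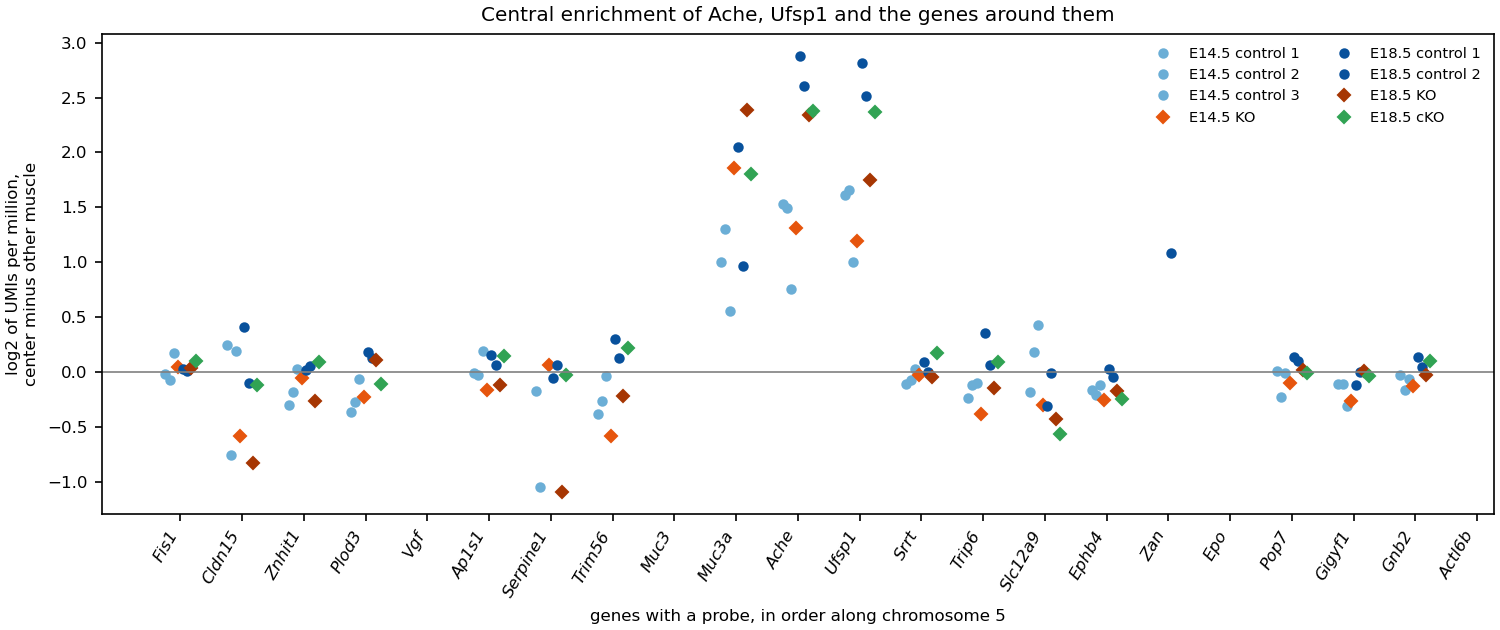
Log2 ratio of center to other muscle for *Ache*, *Ufsp1* and 10 probe-carrying genes on each side, in gene order along chromosome 5, 1 point per section. *Ache*, *Ufsp1* and *Muc3a* lie above 0 in all 8 sections, and the other genes with enough UMIs scatter around 0.

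The central pattern did not extend along the chromosome as a block. Of 20 genes around the pair, 15 had more than 3 UMIs in center and other muscle in 7 or 8 sections. *Srrt*, the next gene downstream of *Ufsp1*, ranged from -0.11 to 0.17 in its log2 ratio of center to other muscle. Its span borders that of *Ufsp1*, but its strand was not read here, so which of its ends is the start is not given. The 14 genes other than *Muc3a* ranged from -1.09 to 0.43, and 0 of them were above 0 in all their sections.

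*Muc3a*, a mucin gene and the nearest upstream gene with a probe, 75.7 kb before *Ache* at chr5:137208805-137212545, was the exception. Its log2 ratio was 1.01, 1.30 and 0.55 in the E14.5 controls, 2.05 and 0.97 in the E18.5 controls, 1.86 in the E14.5 KO, 2.39 in the E18.5 KO and 1.80 in the cKO, from 26 to 88 center UMIs per section. In muscle it was also called lower in the E14.5 KO, at 2.03 normalized CPM against 6.14 to 7.48 (log2 fold change -1.78, SE 0.32, adjusted p = 0.039, edgeR), as 1 of the 15 neighbors tested. It fell with stage as well, to 3.65 and 2.43 in the E18.5 controls (-1.19, SE 0.23, adjusted p = 0.0021).

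Finally, the partners of each gene product were read from lists. For the UFM1 pathway, 7 of 8 listed genes carried a probe, among them the modifier *Ufm1* and the ligase *Ufl1*. In muscle, 0 of these 7 were called in the E14.5 KO or in the cKO by edgeR or DESeq2, and 0 had an unadjusted p under 0.05. Over all genes edgeR called 2.08% and 8.8% in these comparisons, so a count of 0 among 7 is near the background. Between stages 3 of the 7 were called higher (*Ufm1*, *Ufl1* and *Ddrgk1*) and 3 lower, beside 65.6% of all genes. In the E18.5 KO, where 25.7% of all genes were called, *Cdk5rap3*, an adaptor of the ligase, rose by 0.45. In central contrast only *Ddrgk1* was called, -0.31 between stages. The second UFM1 protease, *Ufsp2*, read 48.8 to 53.5 normalized CPM in the 5 controls and 50.3, 40.2 and 49.4 in the E14.5 KO, the E18.5 KO and the cKO, and was not called in these 3 comparisons.

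Among the 9 anchors and matrix genes, 7 rose from E14.5 to E18.5 in control muscle and *Nid2* fell, beside 65.6% of all genes called. *Bche*, butyrylcholinesterase, the sister enzyme of acetylcholinesterase, read 20.3 to 24.1 normalized CPM at E14.5 and 93.4 and 89.3 at E18.5. *Prima1*, the membrane anchor of both enzymes, read 1.01 to 1.19 at E14.5 and 12.9 and 30.6 at E18.5. In the E18.5 KO *Bche* fell by 1.022, *Prima1* fell by 1.996 and *Lrp4*, the agrin receptor, fell by 0.64, and *Nid2* rose, 4 of 9 beside 25.7% of all genes. *Bche* at 45.0 normalized CPM in the KO thus lay below both controls, whereas *Ache* at 75.0 lay above both.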

How the data were processed

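The deposited files hold, per section, the UMI counts of 19465 probe-targeted genes in each spot, which the authors made with Space Ranger (2.0.0 or 2.0.1 per the file headers) on mm10. Headers gave 2.0.0 for E14.5 controls 1 and 2 and the E14.5 KO. They gave 2.0.1 for E14.5 control 3 and all E18.5 sections. The values are raw counts. Spots with at least 1000 UMIs were kept. UMIs were summed over the muscle spots of each section, or over center and other muscle, and tested across sections with edgeR 4.0.16 in R 4.3.3 (filterByExpr, TMM, quasi-likelihood F test, Benjamini-Hochberg adjustment over all genes tested, called under 0.05). Both fits had 3 residual degrees of freedom. A group of 1 section was assumed to vary as the controls do. CPM with exact 95% Poisson intervals describes single sections. The members and lists were chosen with earlier results of these data known. The genes named are the members, the fixed lists, the 5 genes most like each member, the targeted genes and *Ttn*. The matched depth and the difference between both KO effects were added after seeing the data. The fits were tested on simulated data. Deposited enrichment scores and image scale factors were not used. A result of 1 listed gene is not reported here.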

Additional observations from a re-analysis of the deposited data

Results flagged for a closer look

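The central contrast, the log2 ratio of center to other muscle, differed between stages in the controls by 1.29 for *Ache* and 1.07 for *Ufsp1*, by a test of the difference itself. That test rests on the same control sections in which the genes were chosen by their center UMIs. It also takes the center as 15% of muscle spots at both stages, in sections with unlike numbers of muscle spots. *Chrna1*, a gene of the center score, rose in this contrast too, from 1.04 to 2.38. For *Ufsp1* the central contrast also differed between the E18.5 CaV1.1 KO and its controls, by -0.78. Those controls too are among the sections in which the genes were chosen. The effect of the CaV1.1 KO on the muscle level differed between E18.5 and E14.5 by 1.73 for *Ache* and 1.87 for *Ufsp1*, a test that was added after the data were seen. The section labelled CaV1.1 KO stands alone at each stage, so embryo, section and genotype cannot be told apart in the last 3 values.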

How the results depend on the processing

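The center ratios of the 3 genes, the property they were chosen by, stayed above 1 in each section under the definitions of center and muscle tried, but 60 of 144 values moved by more than their counting interval. The stage difference in central contrast of *Ache* and *Ufsp1* was called in 10 of 11 alternatives. The counts of genes called for central contrast moved as well. For the E14.5 KO, 29 genes became 11 and 51 with the center at 10% and 25% of muscle spots, 1 with a smoothed score, and 0 in DESeq2, at matched depth and in edgeR without the section block, where 143, 578 and 245 genes had an unadjusted p under 0.05. For the E18.5 KO, 320 became 1 in DESeq2, 26 at matched depth and 0 without the section block (407 at an unadjusted p under 0.05). For the cKO, 233 became 13, 12 and 0 (288) in the same order, and for stage, 1738 became 405, 130 and 17. Leaving out 1 control section gave 9 to 55 genes for the E14.5 KO, 84 to 371 for the E18.5 KO, 127 to 169 for the cKO and 871 to 2008 for stage.

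In muscle, the 308 genes called in the E14.5 KO became 696 in DESeq2, 577 with muscle cut at the median muscle score, 536 without a filter, 4939 scaled to the 9 muscle genes, and 65 to 268 when 1 control was left out. The E18.5 KO gave 12468 instead of 3819 under that scaling, and 3066 to 3522 with 1 control left out. The cKO gave 2032 instead of 1305 with that cut, 3886 scaled to muscle genes, and 826 to 1246 with 1 control left out. Stage gave 8534 to 9262. The difference between both KO effects, 949 genes, became 1468 in DESeq2, 1777 with that cut, 4715 scaled to muscle genes, and 0 to 1105 with 1 control left out.

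The replicate number as a block left 0 genes in edgeR for the E14.5 KO (2052 at an unadjusted p under 0.05), 0 for the difference between KO effects (3630) and 81 for the cKO, with 1 residual degree of freedom, and all 3 genes lost their E14.5 call under this replicate block (adjusted p 0.078 to 0.12). Same-numbered E14.5 and E18.5 controls deviated with r = -0.18 and -0.23, so the samples share only a number. Signs turned mostly for values near 0 and not called, but also for some larger ones. *Ache* in the central contrast of the E14.5 KO was -0.0824 and -0.10 with 10% and 25% centers and -0.0563 smoothed. Without control 3 it was -0.17, within a range of -0.17 to 0.14 when 1 control was left out. *Colq* in that contrast was 0.81 in the main fit and -0.18 at matched depth. *Colq* in that of the E18.5 KO was 0.0911 and 0.31 with 10% and 25% centers, 0.19 at matched depth, 0.086 smoothed, and -0.0809 to 0.0222 when 1 control was left out. *Colq* between stages in muscle was 0.0119 in DESeq2, 0.0112 with RLE factors, 0.0016 over all spots, 0.0067 unfiltered, 0.0414 with the replicate block, and -0.13 to 0.11 when 1 control was left out. Scaled to the muscle genes, *Colq* in the E18.5 KO was 0.72, and *Ufsp1* between stages was -2.81, called. The causes were not tested. *Colq* rests on 32 to 175 center UMIs per section, which limits its contrasts, and each mutant is 1 section.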
